A study of Mus musculus with 13 samples.

Results

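Immediate early genes and other activity-regulated genes were examined in bulk RNA sequencing of 13 mouse hippocampi. The set holds 41 genes, taken by name from a list of transcription factors, signalling inhibitors and secreted or synaptic products that neurons switch on after stimulation. It is split by kinetics into 25 rapid primary-response genes, 15 delayed genes and Jund, an AP-1 factor expressed without stimulation. The count table holds 56980 genes, of which 17549 passed the filter on low counts, and all 41 genes of the set were among these. All animals were male and aged 9 months. Both groups carried App NL-G-F, a humanized allele of the amyloid precursor gene bearing mutations from inherited Alzheimer's disease, and Lpcat3 f/f, floxed alleles of an enzyme that places arachidonic acid into phospholipids. The 7 knockout samples also carried vav1-CRE, and the 6 control samples, labelled WT for genotype, did not. The vav1 promoter is active in the blood-forming lineage, so neurons are not its usual target. Tamoxifen was given to all mice by gavage (20 mg/ml, 0.2 mg per g body weight). There was no group without the App allele, without tamoxifen or with an imposed stimulus, so levels here are those at tissue collection.

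Calcium entry through synaptic receptors and channels activates kinases that act on CREB, SRF and MEF2 factors already bound at promoters, and rapid genes are transcribed without new protein synthesis. Many rapid genes encode transcription factors (members of the FOS, JUN, EGR and NR4A families, NPAS4) or inhibitors that end the signal, and their mRNAs decay quickly. Of these families Fosl2, Nr4a2 and Nr4a3 are classed here as delayed. Delayed genes include slower feedback phosphatases and effectors such as neurotrophins, neuropeptide precursors and synaptic proteins. In the hippocampus the rapid genes are used as a record of recent neuronal firing, and many are also inducible in glia and vessel cells, by stress and by handling.

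Library totals ran from 12159941 to 18322559 counts, and mitochondrial counts made up 1.45% to 1.94% of them. Lpcat3 itself ranged from 24.7 to 30.3 CPM (counts scaled to library size) in controls and from 17.3 to 24.3 CPM in knockouts, with a log2 fold change of -0.45 (edgeR adjusted p = 0.0962). Its groups did not overlap but it did not pass the threshold of 0.05, in tissue where all cell types are counted together. The sample numbers in the labels fall into 3 runs whose meaning is not stated. Samples 3283 to 3288 hold 5 knockouts and control 1, samples 3296 to 3300 hold knockout 6 and controls 2, 3 and 4, and samples 4301 to 4307 hold knockout 7 and controls 5 and 6. Group and run are thus partly confounded, and differences within each run are given beside the pooled ones. Every within-run difference rests on a single library of the smaller group. The labels do not say that samples are separate animals, and a p-value here reflects sample-to-sample spread that may be technical.

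No gene of the set passed an adjusted p of 0.05 in edgeR's quasi-likelihood test, in which 4 of 17549 genes (0.0228%) did. The genes were chosen with earlier results of these data known, and several rapid genes vary together across libraries. The counts below are therefore descriptions and no test of the set. At an unadjusted p under 0.05 the edgeR test held 15 of the 41 genes, against 12.5% of all genes tested. Of these, 8 had a higher knockout mean, against 5.23% of all genes, and 7 a lower one, against 7.25%. With the run of sample numbers as a term the test held 4 higher (Dusp5, Dusp6, Nptx2 and Inhba) and 6 lower (Fos, Arc, Btg2, Ier2, Dusp1 and Sik1), against 4.02% and 4.54% of all genes (8.55% in either direction). With septum and striatum marker levels as a term it held 4 higher (Dusp6, Nptx2, Homer1 and Inhba) and 4 lower (Fos, Btg2, Ier2 and Dusp1), against 2.19% and 3.46% (5.66% in either direction). Without a covariate, 7 of the 25 rapid genes were lower at that level (Fos, Npas4, Arc, Btg2, Ier2, Dusp1 and Sik1) and 1 was higher (Klf10). Among the 15 delayed genes 7 were higher (Nptx2, Dusp6, Dusp5, Inhba, Scg2, Homer1 and Bdnf) and 0 were lower. The median log2 fold change was -0.07 over rapid genes, with 14 negative and 11 positive values, so the class did not lie on 1 side, and 0.16 over delayed genes, with 14 positive and 1 negative. Over all genes tested it was -0.004, with 8544 positive and 9005 negative values. DESeq2 called 181 of 12785 genes (1.42%) and 5 of the set: Nptx2, Dusp5, Dusp6 and Inhba higher and Btg2 lower, with adjusted p-values of 0.00302, 0.0053, 0.00745, 0.0146 and 0.0252. With no count filter edgeR called 66 of 38471 genes (0.172%), among them Fos, Btg2 and Dusp1 lower and Dusp5, Dusp6 and Nptx2 higher. With choroid plexus marker levels as a term it called 79 of 17549 genes (0.45%), among them Btg2 lower and Dusp5, Dusp6 and Nptx2 higher.

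**Figure D1:**
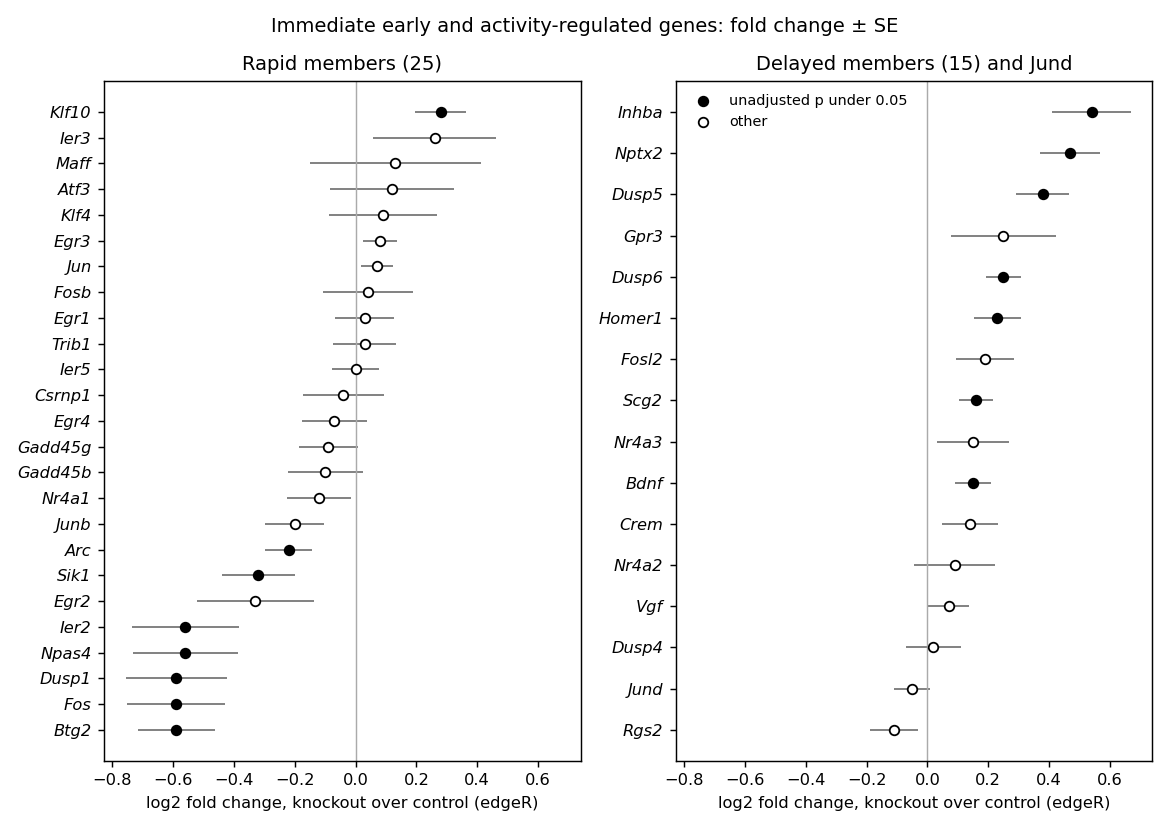
Log2 fold change of knockout over control (edgeR, bars are the standard error) for the 25 rapid genes and for the 15 delayed genes with Jund, each panel ordered by value; filled points have an unadjusted p under 0.05. The 5 lowest rapid genes lie between -0.59 and -0.56, and 14 of 15 delayed genes lie above 0.

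The sequences upstream of these genes are shown because CREB and SRF, through their DNA motifs, are the textbook link from calcium to this set. RefSeq promoter windows on GRCm38.p6 (an older build than the GRCm39 named in the submitters' processing notes) were matched by symbol for 30 of the 41 genes, and the 250 bases before each transcription start were searched on both strands. Entries were missing for Egr1, Dusp4, Trib1, Nptx2, Vgf, Sik1, Egr3, Ier2, Crem, Arc and Klf10. The windows shown belong to 4 rapid genes with a lower knockout mean and 2 delayed genes with a higher one. Capitals mark the full cAMP response element TGACGTCA, its half-site TGACG (or CGTCA on the other strand) and, in Dusp5, 2 adjacent SRF-binding CArG boxes. The positions are chr12:85473640-85473889 on the plus strand for Fos, chr19:4989972-4990221 on the minus strand for Npas4, chr1:134079156-134079405 on the minus strand for Btg2, chr17:26508473-26508722 on the minus strand for Dusp1, chr19:53528895-53529144 on the plus strand for Dusp5 and chr10:99262981-99263230 on the plus strand for Dusp6.
Fos: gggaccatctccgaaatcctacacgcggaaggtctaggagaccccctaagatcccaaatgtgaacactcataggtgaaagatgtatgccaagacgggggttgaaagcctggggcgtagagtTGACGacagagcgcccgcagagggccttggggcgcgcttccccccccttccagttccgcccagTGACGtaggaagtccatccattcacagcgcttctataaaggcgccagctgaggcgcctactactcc
Npas4: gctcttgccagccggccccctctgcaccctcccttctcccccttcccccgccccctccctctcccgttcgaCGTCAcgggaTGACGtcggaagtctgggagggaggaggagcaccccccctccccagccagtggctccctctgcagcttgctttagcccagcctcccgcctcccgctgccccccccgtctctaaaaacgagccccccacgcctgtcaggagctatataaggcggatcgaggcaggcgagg
Btg2: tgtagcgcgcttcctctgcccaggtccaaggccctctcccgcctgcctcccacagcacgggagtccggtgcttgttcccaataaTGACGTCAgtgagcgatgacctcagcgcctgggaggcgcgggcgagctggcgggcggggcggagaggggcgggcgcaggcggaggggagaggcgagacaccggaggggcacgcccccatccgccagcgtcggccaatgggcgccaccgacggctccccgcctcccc
Dusp1: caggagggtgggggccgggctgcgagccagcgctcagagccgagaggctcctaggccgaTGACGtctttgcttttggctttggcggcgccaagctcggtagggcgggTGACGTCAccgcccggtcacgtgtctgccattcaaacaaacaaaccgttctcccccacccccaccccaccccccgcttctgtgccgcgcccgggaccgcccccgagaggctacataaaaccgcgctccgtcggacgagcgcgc
Dusp5: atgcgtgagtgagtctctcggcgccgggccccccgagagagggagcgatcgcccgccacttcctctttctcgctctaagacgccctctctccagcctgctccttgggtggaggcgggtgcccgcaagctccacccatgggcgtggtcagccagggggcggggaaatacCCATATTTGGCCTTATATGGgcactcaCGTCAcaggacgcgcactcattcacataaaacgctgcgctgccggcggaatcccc
Dusp6: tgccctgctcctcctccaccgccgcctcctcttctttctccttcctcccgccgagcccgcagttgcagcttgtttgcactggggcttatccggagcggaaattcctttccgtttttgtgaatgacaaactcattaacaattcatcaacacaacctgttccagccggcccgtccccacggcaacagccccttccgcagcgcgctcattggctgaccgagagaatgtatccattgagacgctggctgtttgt

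The full element TGACGTCA was found in 4 of 30 genes (13.3%), namely Btg2, Dusp1, Maff and Scg2, and in 1.77% of the 27025 genes with a window. Its half-site TGACG, which each full element contains on both strands, was found in 21 of 30 genes (70%) against 19.8% of all genes. Counted by window, it was in 27 of 46 windows of the set and in 17.8% of all 32851 windows. The genes with a window were not limited to those tested here and were not matched for GC content. Rapid and delayed genes held the half-site at like shares, 13 of 18 (72.2%) and 8 of 11 (72.7%). A CArG box was found in Dusp5 and Egr2 (6.67% of the set, 1.62% of all genes), and the AP-1 site TGAGTCA in Csrnp1 alone (3.33% and 5.16%). The Dusp6 window held none of the 4 motifs. Sites farther upstream than these 250 bases were not searched, nor were genes without a window, such as Egr1, Egr3 and Arc. A motif not found here, such as a CArG box for Fos, may therefore lie outside the window. Genes with several start sites have more windows to match, for example 7 for Bdnf, and a match is a description of letters in this window and not of binding.

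The AP-1 factors, which pair as FOS and JUN proteins on shared DNA sites, differed among themselves. Fos (ENSMUSG00000021250, chromosome 12), the classical marker of recently active cells, ran from 24.9 to 45.9 CPM (median 35.5) in controls and from 17.2 to 34.6 CPM (median 19.9) in knockouts. Group means were 34.8 ± 8.38 and 23.1 ± 6.16 CPM (SD over 6 control and 7 knockout libraries, as for all means below), a log2 fold change of -0.59 (SE 0.161, edgeR adjusted p = 0.162). The 7 knockouts were all under the control median and 5 lay below every control, while the groups overlapped through controls 1, 2 and 4 and knockouts 1 and 3. Within the runs the difference in mean log2 CPM was -0.12, -0.68 and -0.91, and without samples 4301 to 4307 the log2 fold change was -0.41. Jun, the AP-1 gene with the highest mean count, had 87.7 to 108 CPM (median 93.3) in controls and 93.5 to 109 CPM (median 100) in knockouts. Its log2 fold change was 0.07, the ranges overlapped, and all 7 knockouts lay above the control median, with 3 controls below every knockout. Junb had a log2 fold change of -0.20, Fosl2, a delayed FOS relative, of 0.19, Jund of -0.05 and Fosb of 0.04. Atf3 (0.12) and Maff (0.13), stress-inducible bZIP factors, had low counts, 17 to 57 per library for Atf3 and 9 to 27 for Maff. Counts per gene do not separate the truncated Fosb product from the full one.

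The EGR zinc-finger factors, which translate activity into target gene programmes, showed 0 of 4 genes at an unadjusted p under 0.05 in edgeR. That level held 12.5% of all genes tested. Egr1, the most abundant EGR gene, had 177 to 274 CPM (median 212) in controls and 174 to 267 CPM (median 232) in knockouts. Its means of 218 ± 31.9 and 222 ± 33.2 CPM gave a log2 fold change of 0.03, and the ranges were nearly the same. Egr2 had the most negative value of the family at -0.33 (SE 0.193), with 4 of 7 knockouts below every control and knockout 3 above them all. Egr3 stood at 0.08 and Egr4 at -0.07.

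The NR4A orphan nuclear receptors likewise held 0 of 3 genes at that level. Nr4a2, a delayed gene and the most abundant of the 3, had 57.6 to 88.2 CPM (median 81.4) in controls and 61.1 to 119 CPM (median 75.0) in knockouts, a log2 fold change of 0.09. Its knockout range enclosed most control values, with knockouts 1 and 3 at the top. The rapid Nr4a1 stood at -0.12 and the delayed Nr4a3 at 0.15.

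Arc and Npas4 are the genes of the set whose induction is most restricted to neurons. Npas4, a transcription factor induced by depolarization, ran from 11.3 to 24.6 CPM (median 18) in controls and from 8.59 to 16.4 CPM (median 12.3) in knockouts. Means were 18.3 ± 4.72 and 12.4 ± 3.14 CPM, a log2 fold change of -0.56 (SE 0.173, edgeR adjusted p = 0.213). Every knockout lay below the control median and 4 of 6 controls lay above every knockout, yet the differences within runs were 0.03, -0.48 and -0.66, and with the run as a term the log2 fold change was -0.34. Arc, which promotes removal of AMPA receptors from synapses, ran from 160 to 217 CPM (median 180) in controls and from 140 to 190 CPM (median 155) in knockouts. Its means of 184 ± 21.0 and 158 ± 18.9 CPM gave a log2 fold change of -0.22 (SE 0.078, edgeR adjusted p = 0.253). The Arc groups overlapped broadly, 4 knockouts lay below every control, and the run differences were -0.09, -0.38 and -0.18.

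Of the 6 rapid growth and stress regulators, Btg2 and Ier2 were lower at an unadjusted p under 0.05 in edgeR and 0 were higher. At that level 7.25% of all genes tested were lower and 5.23% higher. Btg2 (ENSMUSG00000020423, chromosome 1), an antiproliferative factor that promotes mRNA deadenylation, ran from 34.7 to 73.3 CPM (median 53.4) in controls and from 32.1 to 38.0 CPM (median 36.8) in knockouts. Means were 53.9 ± 14.7 and 35.9 ± 2.11 CPM, a log2 fold change of -0.59 (SE 0.127, edgeR adjusted p = 0.0965). Of the 6 controls 5 lay above every knockout, and control 1, at 34.7 CPM, lay among them. The coefficient of variation was 27.3% in controls and 5.88% in knockouts. Run differences were 0.05, -0.38 and -1.01, and the value with the run as a term was -0.42. Leaving out control 1 gave an adjusted p of 0.0226 in edgeR, with 80 of 17757 genes (0.451%) then called. Dusp5, Dusp6, Nptx2 and Klf10 were then also called, with adjusted p-values of 0.028, 0.047, 0.0458 and 0.028. Leaving out samples 4301 to 4307 gave a log2 fold change of -0.34 for Btg2.

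Ier2, a short nuclear protein gene, ran from 5.87 to 12.8 CPM (median 7.62) in controls and from 4.36 to 8 CPM (median 5.93) in knockouts. Means were 8.70 ± 2.71 and 5.90 ± 1.25 CPM, a log2 fold change of -0.56 (SE 0.177, edgeR adjusted p = 0.214), with run differences of -0.07, -0.31 and -0.81. The groups overlapped, and 2 controls, both of the last run, lay above every knockout. Without samples 4301 to 4307 the Ier2 value was -0.29. Ier5 stood at 0.00, Ier3 at 0.26, and the stress sensors Gadd45b and Gadd45g at -0.10 and -0.09.

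Among the other transcriptional regulators Klf10, a repressor also induced by TGF-beta, was the 1 rapid gene of 25 that was higher at an unadjusted p under 0.05 in edgeR. It ran from 51.0 to 78.9 CPM (median 58.9) in controls and from 66.9 to 82.9 CPM (median 75.8) in knockouts. Means of 60.7 ± 9.74 and 74.0 ± 6.39 CPM gave a log2 fold change of 0.28 (SE 0.0834, edgeR adjusted p = 0.195). In 5 of 6 controls Klf10 was below every knockout, and control 1 was the exception. Run differences were -0.08, 0.25 and 0.38, the value with the run as a term was 0.16, and without control 1 the adjusted p in edgeR was 0.028. With septum and striatum marker levels as a term Klf10 stood at 0.17. Crem, whose short inducible repressor is not separated at gene level, stood at 0.14, Klf4 at 0.09 and Csrnp1 at -0.04.

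Of the 7 feedback inhibitors, Dusp1 and Sik1 were lower and Dusp5 and Dusp6 higher at an unadjusted p under 0.05 in edgeR. At that level 7.25% of all genes tested were lower and 5.23% higher. Dusp1, a rapid phosphatase that inactivates p38 and JNK kinases, ran from 30.1 to 65.2 CPM (median 42.4) in controls and from 22.2 to 41.1 CPM (median 31.2) in knockouts. Means were 46.8 ± 14.1 and 31.1 ± 6.78 CPM, a log2 fold change of -0.59 (SE 0.166, edgeR adjusted p = 0.176). Every knockout value was under the control median, and 4 controls lay above every knockout. Run differences were -0.12, -0.15 and -0.64, and the log2 fold change was -0.28 with the run as a term, -0.37 without samples 4301 to 4307 and -0.36 without samples 3283 to 3288. Sik1, a kinase that restrains the CREB coactivators of the CRTC family, ran from 14.0 to 21.1 CPM (median 15.8) in controls and from 10.7 to 16.7 CPM (median 13.2) in knockouts. Its means of 16.8 ± 2.88 and 13.5 ± 2.21 CPM gave -0.32 (SE 0.12, edgeR adjusted p = 0.284), with run differences of -0.08, -0.53 and -0.42. The Sik1 groups overlapped, and its log2 fold change with septum and striatum marker levels as a term was -0.10, and without samples 3283 to 3288 it was -0.49.

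Dusp5 and Dusp6 are delayed phosphatases of the kinase ERK. Dusp6 (ENSMUSG00000019960, chromosome 10), which dephosphorylates ERK in the cytoplasm, ran from 69.3 to 86.8 CPM (median 81.1) in controls and from 87.3 to 104 CPM (median 93.5) in knockouts. Means were 80.5 ± 6.23 and 96.1 ± 6.91 CPM, a log2 fold change of 0.25 (SE 0.0575, edgeR adjusted p = 0.1). The groups did not overlap, which held for 78 of all genes tested (0.444%) and for 2 of the set, Dusp6 and Nptx2. The 3 run differences were 0.14, 0.23 and 0.36, and control 1, at 86.8 CPM, was the closest to the knockouts. Dusp5, its nuclear relative, ran from 24.1 to 34.8 CPM (median 28.4) in controls and from 31.7 to 41.4 CPM (median 38.2) in knockouts. Means of 28.2 ± 3.84 and 36.9 ± 4 CPM gave 0.38 (SE 0.0874, edgeR adjusted p = 0.104), and 5 of 6 controls lay below every knockout. Run differences for Dusp5 were 0.07, 0.44 and 0.45, and the value was 0.21 with septum and striatum marker levels as a term. Rgs2, an inhibitor of Gq signalling, was the single delayed gene below 0 at -0.11, while Dusp4 stood at 0.02 and the pseudokinase Trib1 at 0.03.

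All 7 effectors, the secreted and synaptic products, had positive log2 fold changes, and 5 of them had an unadjusted p under 0.05 in edgeR. At that level 5.23% of all genes tested were higher. Nptx2 (ENSMUSG00000059991, chromosome 5), a pentraxin that gathers AMPA receptors at synapses onto interneurons, ran from 11.5 to 13.8 CPM (median 12) in controls and from 15.2 to 22.2 CPM (median 16.7) in knockouts. Means were 12.4 ± 0.996 and 17.3 ± 2.55 CPM, a log2 fold change of 0.47 (SE 0.0981, edgeR adjusted p = 0.0965). No knockout reached down to a control, and the run differences of 0.36, 0.36 and 0.46 were alike, though each rests on a single library of the smaller group. Inhba, the subunit of activin A, ran from 4.19 to 5.98 CPM (median 5.33) in controls and from 5.11 to 9.15 CPM (median 7.68) in knockouts. Means of 5.21 ± 0.708 and 7.60 ± 1.28 CPM gave 0.54 (SE 0.129, edgeR adjusted p = 0.125), the highest value of the 41 genes. For Inhba 6 of 7 knockouts lay above every control and knockout 7 lay among them. Its run differences were 0.45, 0.57 and 0.06, the value with the run as a term was 0.39, and without samples 3283 to 3288 the log2 fold change was 0.34.

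The more abundant effectors had smaller log2 fold changes. Scg2, the secretoneurin precursor, ran from 176 to 211 CPM (median 184) in controls and from 194 to 241 CPM (median 206) in knockouts. Means were 189 ± 12.6 and 211 ± 17.4 CPM, a log2 fold change of 0.16 (SE 0.0555, edgeR adjusted p = 0.246), with run differences of 0.02, 0.17 and 0.09. The Scg2 groups overlapped through controls 1 and 6, and the value was 0.09 with the run as a term. Homer1, a postsynaptic scaffold whose short activity-induced form is not separated here, ran from 130 to 182 CPM (median 162) in controls and from 166 to 210 CPM (median 174) in knockouts. Its means of 156 ± 20.4 and 183 ± 18 CPM gave 0.23 (SE 0.0777, edgeR adjusted p = 0.247), with run differences of 0.04, 0.05 and 0.33 and a value of 0.13 with the run as a term. The Homer1 groups overlapped, and controls 5 and 6 were well below the other controls. Bdnf, the neurotrophin, ran from 42.4 to 51.9 CPM (median 46.2) in controls and from 47.7 to 56.9 CPM (median 50.2) in knockouts. Means of 46.3 ± 3.49 and 51.3 ± 3.60 CPM gave 0.15 (SE 0.0592, edgeR adjusted p = 0.312), with run differences of 0.00, 0.14 and 0.12 and a value of 0.08 with the run as a term. With septum and striatum marker levels as a term Scg2 stood at 0.05 and Bdnf at 0.07, and Homer1 stood at 0.14 without samples 4301 to 4307. The receptor Gpr3, which raises cAMP without a ligand, stood at 0.25, and the neuropeptide precursor Vgf at 0.07.

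**Figure D2:**
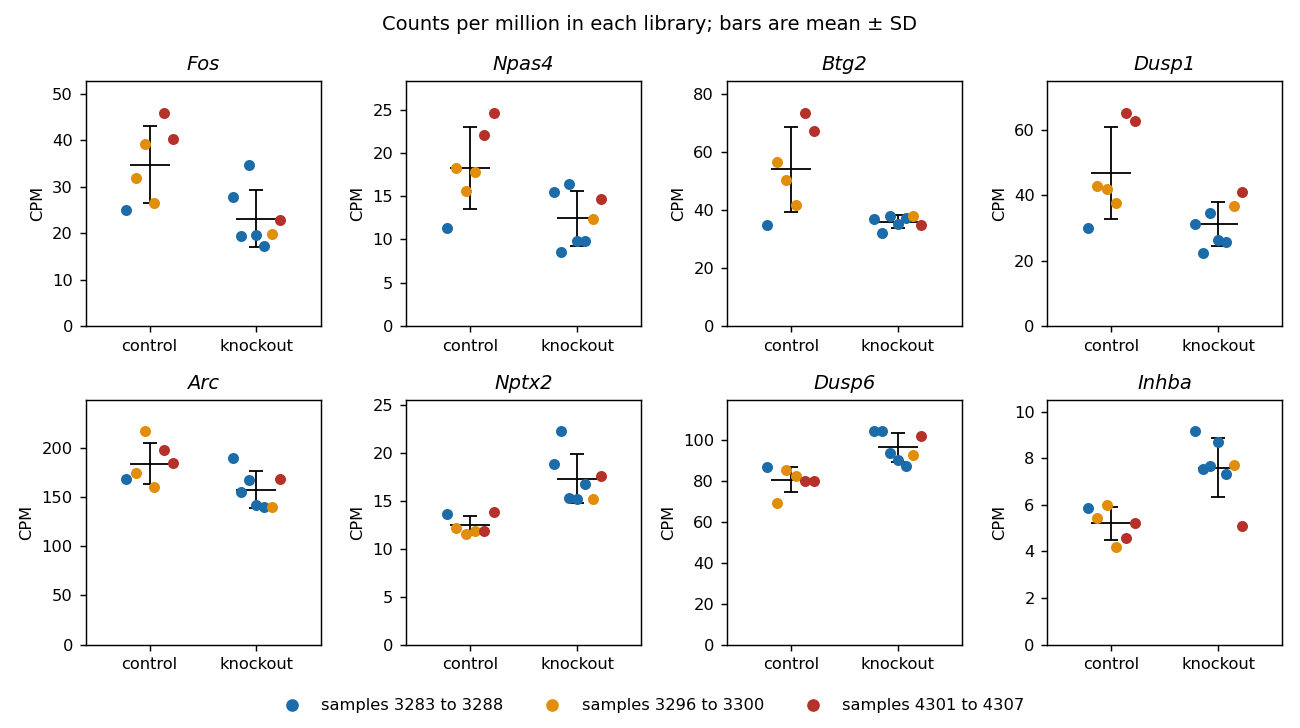
CPM of 8 genes in each of the 13 libraries by group, coloured by the run of sample numbers; the horizontal bar is the group mean and the error bar the SD. Fos, Npas4, Btg2 and Dusp1 are high in the controls of samples 4301 to 4307 and low in control 1, while the Nptx2 and Dusp6 groups do not overlap.

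Levels per length show how far the set spans. Per kilobase of exon model, mean levels were 79.9 CPM for Scg2, 55.6 for Arc, 49.0 for Egr1 and 47.2 for Vgf, the 4 highest. Inhba (1.02), Fosb (1.04), Klf4 (1.19) and Atf3 (1.30) were low on the same scale, and Maff at 0.439 was the lowest.

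The rapid genes were then compared with the delayed ones library by library, as the mean log2 CPM of each class. The rapid mean was 4.37 ± 0.195 in controls (4.18 to 4.68) and 4.25 ± 0.124 in knockouts (4.10 to 4.40), a difference of -0.12. The delayed mean was 5.18 ± 0.0975 in controls (5.06 to 5.33) and 5.37 ± 0.108 in knockouts (5.23 to 5.55), a difference of 0.20. Both ranges overlapped. Rapid minus delayed was -0.81 ± 0.273 in controls (-1.15 to -0.38) and -1.13 ± 0.107 in knockouts (-1.30 to -0.98), a difference of -0.32, and 5 of 6 controls lay above every knockout. Control 1, at -1.15, lay within the knockouts, with which it shares its run. The run differences of rapid minus delayed were 0, -0.26 and -0.49, the last with controls 5 and 6 at -0.38 and -0.62. No test was made of these class means, because the genes were chosen with earlier results of these data known.

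**Figure D3:**
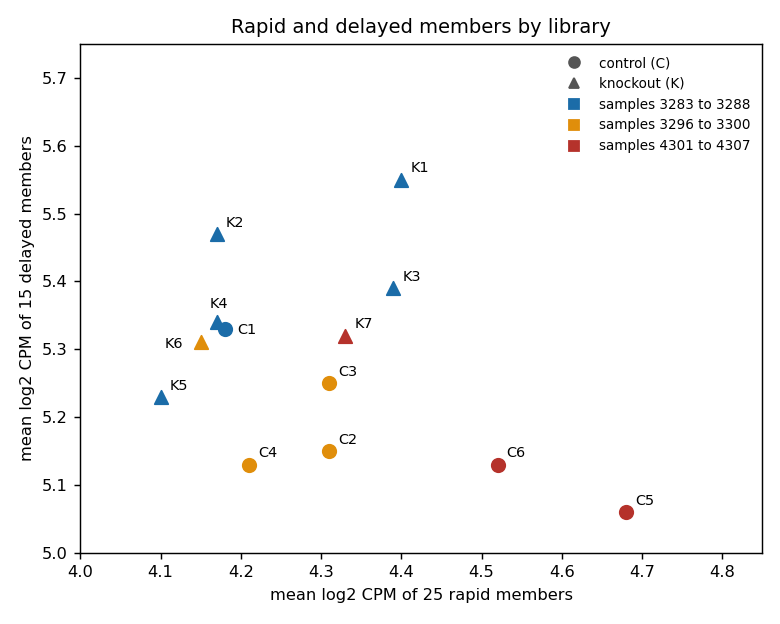
Mean log2 CPM of the 25 rapid genes (horizontal) against the 15 delayed genes (vertical), 1 point per library, circles for controls (C) and triangles for knockouts (K), coloured by the run of sample numbers. Controls 5 and 6 lie at high rapid and low delayed levels, and control 1 lies among the knockouts.

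Some libraries were extreme for many genes at once. Control 5 was the highest of the 13 libraries for 12 of 25 rapid genes (Fos, Junb, Egr1, Nr4a1, Btg2, Ier2, Dusp1, Gadd45g, Csrnp1, Maff, Atf3 and Trib1) and the lowest for 5 of 15 delayed genes (Fosl2, Nr4a3, Homer1, Scg2 and Gpr3). Knockouts 2 and 5 were each the lowest for 6 rapid genes, and knockouts 1 and 2 were each the highest for 5 delayed genes. The median of the rapid class was 0.00 without control 5 and 0.02 without samples 4301 to 4307. Without samples 3283 to 3288, where 2 knockouts and 5 controls remain, it was -0.12, while the delayed median was 0.13. The rapid genes varied somewhat more in controls than in knockouts, with a median coefficient of variation of 16.4% and 15%, and 16 of 25 were more variable in controls. For delayed genes the medians were 10.2% and 12.5%. Neither the extreme libraries nor these spreads are given over all genes tested, so neither is shown to be particular to the set.

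Fos was set against 4 genes across the 13 libraries. Pearson's r of log2 CPM with Fos was 0.84 for Junb (permutation p = 0.00037, Benjamini-Hochberg 9e-04 over 4 pairs) and 0.82 for Btg2 (permutation p = 0.00045, adjusted 9e-04). Spearman's rho was 0.79 for both, with permutation p = 0.00211 for Junb and 0.00187 for Btg2 (both 0.00422 adjusted). Without the 2 libraries farthest from the median of Fos, control 5 and knockout 5, r was 0.72 for Junb and 0.79 for Btg2. With group means removed it was 0.81 and 0.66, and within the 6 samples 3283 to 3288 it was 0.83 and 0.47. Egr1 gave r = 0.46 (permutation p = 0.113, adjusted 0.113) and rho = 0.44 (permutation p = 0.135, adjusted 0.135), and r was 0.09 without those 2 libraries, on which the pooled relation therefore rests. For Egr1 r was 0.69 with group means removed and 0.78 within samples 3283 to 3288. Nptx2 gave r = -0.63 (permutation p = 0.0223, adjusted 0.0297) and rho = -0.61 (permutation p = 0.0301, adjusted 0.0401). Its r was -0.55 without those 2 libraries but -0.16 with group means removed and -0.27 within samples 3283 to 3288, so the relation did not hold within groups. The pairs share library and depth, and they were chosen with earlier results known. The permutations exchanged libraries across group and run, so the p-values do not speak to a relation within groups or runs.

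Within groups, the rapid genes followed their class mean to different degrees. The correlation of each gene with the rapid mean, with group means removed, was 0.91 for Nr4a1, 0.90 for Junb, 0.88 for Fos, 0.87 for Ier2, 0.81 for Npas4, 0.80 for Dusp1 and 0.76 for Btg2, which are themselves part of that mean. Klf10 and Gadd45b stood at 0.03, Jun at -0.40 and Egr3 at -0.50. The delayed genes lay in both directions. Among them Nr4a2 stood at 0.50, Crem at 0.43 and Rgs2 at 0.30. Dusp4 stood at -0.58, Scg2 at -0.52, Homer1 at -0.50, Bdnf at -0.47 and Nptx2 at 0.01. Outside the set, the 10 most alike of 12220 genes included Cpsf3 (0.93), Zfp36 (0.91), Tmem97 (0.91), Paics (0.89), Tlcd1 (0.89), Slc25a20 (0.88), Zpr1 (0.88), St3gal6 (0.86) and Mfge8 (0.86). Zfp36, a rapid gene that promotes mRNA decay, had a log2 fold change of -0.18. These values are descriptions over 13 libraries.

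The genes that relay calcium and growth signals to this set did not pass the adjusted test either. For the counts below, 5.23% of all genes tested were higher and 7.25% lower at an unadjusted p under 0.05 in edgeR. Of 39 upstream kinases, channels and transcription factors tested, 0 passed in edgeR, 6 were higher at an unadjusted p under 0.05 and 1 was lower, with a median log2 fold change of 0.03. The higher ones were Elk1 (0.17), an SRF partner, the SRF coactivator Mrtfa (0.11), the kinases Camk4 (0.14), Map2k1 (0.12) and Rps6ka3 (0.16), and the calcineurin subunit Ppp3cb (0.09). Mef2c (-0.17), an activity-responsive factor, was the lower one. Of 34 other activity-induced genes 0 passed, 6 were higher and 4 lower at that level, with a median of 0.08. Bhlhe40 (0.35), Ptgs2 (0.24), Rgs4 (0.18), Irs2 (0.14), Plk2 (0.11) and Mcl1 (0.11) were higher. Ccn1 (-0.49), the opioid peptide precursor Penk (-0.39), the ERK pathway inhibitor Spry2 (-0.26) and Rheb (-0.11) were lower. The 8 heat shock genes had a median of 0.00, with 1 higher and 0 lower, and the 16 glucocorticoid-responsive genes a median of 0.11, with 5 higher and 1 lower.

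Markers of the cells and regions a hippocampal piece can hold are given because several of them also express this set, and in bulk tissue fewer cells of a type and less RNA per cell cannot be told apart. No marker passed the adjusted test in edgeR. Of all genes tested, 5.23% were higher and 7.25% lower at an unadjusted p under 0.05 in edgeR. Dentate granule cell markers had 4 of 12 higher and 0 lower at an unadjusted p under 0.05, with a median of 0.13 and summed levels of 810 to 981 CPM in controls and 808 to 1070 in knockouts. Interneuron markers had 0 of 10 higher and 3 lower, with a median of -0.12 and summed levels of 776 to 1060 and 752 to 845 CPM. Septum and striatum markers, which a hippocampal dissection should hold little of, had 0 of 11 higher and 6 lower, with a median of -0.26 and sums of 477 to 598 and 510 to 536 CPM. Choroid plexus markers had 0 of 10 in either direction but spanned 412 to 5970 and 353 to 10100 CPM. All 10 oligodendrocyte markers had negative values, with 2 lower at an unadjusted p under 0.05, a median of -0.10 and sums of 6120 to 7950 and 5930 to 7710 CPM. CA1, CA3 and CA2, general excitatory, astrocyte, microglia, endothelial, mural and cortex markers had medians between -0.12 and 0.10. The part of cell or region content in the values above was not tested beyond the fits with choroid plexus or septum and striatum levels as a term.

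Gene length also moved with the comparison. Negative log2 fold changes made up 69.5% of the shortest of 5 equal bins of all genes by exon length and 52.9%, 44.1%, 41.9% and 47% of the following bins. The rapid genes fell into these bins as 4, 11, 7, 3 and 0, and the delayed genes as 0, 7, 2, 4 and 2. Median exon lengths were 3189 bases for rapid, 3627 for delayed and 4039 for all genes, and median GC content was 56.1%, 48.9% and 49.4%. With length and GC trends removed from each library the rapid median was 0.01 and the delayed median 0.18, while Fos was -0.55, Btg2 -0.52, Dusp1 -0.55, Npas4 -0.55, Nptx2 0.50 and Dusp6 0.26. Ier2, in contrast, was -0.41 after that step.

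**Figure D4:**
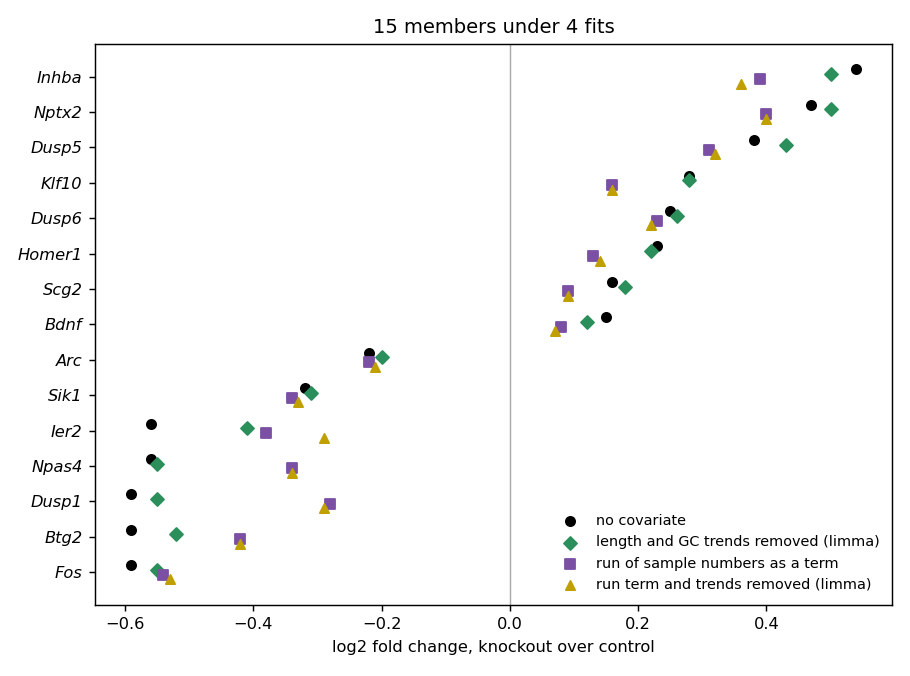
Log2 fold change of the 15 genes with an unadjusted p under 0.05, without a covariate, with length and GC trends removed, with the run of sample numbers as a term and with both. All 15, chosen by the fit without a covariate, keep their sign in the 4 fits, which use the same libraries. With the run term 13 of them lie closer to 0, Arc is at -0.22 in both fits and Sik1 is at -0.34 against -0.32.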

How the data were processed

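RNA from 13 hippocampi was sequenced after library preparation with a poly(A)-primed, PCR-amplifying SMART-Seq mRNA kit, per the labels' protocols. The authors deposited raw read counts for each gene, whose columns were matched to samples by the number in each title. The submitters' processing notes name GRCm39, DESeq2 1.36.0, R 4.2.0, featureCounts 2.0.3 and STAR 2.7.10a. How strand and multimapped reads were handled, and which annotation was used, is not given in the sources used here. Values of genes that overlap another gene on either strand are therefore uncertain. Ensembl identifiers gave a symbol for 52073 genes (99.7% of counts), and exon length and GC content came from GENCODE annotation on an older build. No pair of libraries of a group matched within sampling noise, and none was merged.

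The main comparison was edgeR's quasi-likelihood test (version 4.0.16, R 4.3.3) on genotype alone, after filterByExpr with a minimum count of 10 and TMM scaling. Benjamini-Hochberg adjustment ran over 17549 genes, and 0.05 was the threshold. CPM values use TMM factors, except the summed marker levels, which use library totals alone. Class means use log2 CPM with a prior count of 2. Correlations used 100000 permutations (two-sided). Every gene of the set is named with its log2 fold change. Values by group are given for those with an unadjusted p under 0.05 and for the gene with the highest mean CPM in each role. Of the upstream and other activity lists, genes with an unadjusted p under 0.05 are named. The 10 genes most like the rapid mean were taken among genes of at least 5 CPM, and 1 of them is not reported here. The genes, the classes and the lists were chosen with earlier results of these data known, so no set test and no p for a class mean were computed. Of the listed genes 1 could not be matched to an identifier.

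Alternatives were DESeq2 1.42.0, limma-voom (limma 3.58.1) with quality weights, RLE and upper-quartile factors, a minimum mean count of 50, no count filter, and the run of sample numbers, choroid plexus markers or septum and striatum markers as a term. Further alternatives were lowess removal (span 0.4) of exon length and GC trends in each library, followed by limma, leaving out samples 4301 to 4307, each library in turn, and narrower lists. The run term together with trend removal, and leaving out samples 3283 to 3288, were chosen after seeing the data. The analysis was tested on simulated data.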

Additional observations from a re-analysis of the deposited data

Results flagged for a closer look

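In 82 groups of libraries (41 genes in controls and in knockouts), 3 held a library far from the others of its group. Chance alone sets a library apart in about 1 of 20 groups. Fosb, a FOS family factor, was at 8.36 CPM in control 5, and the next control was at 6.47 CPM. Ier3, a stress-inducible survival gene, was at 6.44 CPM in control 5, with the next control at 3.80 CPM. Gpr3, the receptor that raises cAMP without a ligand, was at 7.90 CPM in control 1, with the next control at 4.68 CPM. The 5 knockouts of the same run of sample numbers had 4.24 to 7.42 CPM.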

How the results depend on the processing

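The count of all genes called, 4 in edgeR, was 181 with DESeq2, 66 with no count filter, 1 with a mean count of at least 50 and 79 with choroid plexus levels as a term. It ran from 3 to 80 when each library was left out, with 80 without control 1 and 7 without knockout 3. The cause of these shifts was not tested. All 15 genes with an unadjusted p under 0.05 in edgeR kept their direction in all 26 alternatives. The 15 were chosen by the main fit, and the alternatives refit all or part of the same libraries. Kept signs therefore say little about stability. Of the other 26 genes of the set 15 changed sign in at least 1 alternative, and the largest log2 fold change among these was 0.26. The rapid median ran from -0.16 to 0.02, the delayed median from 0.10 to 0.23, and rapid minus delayed from -0.47 to -0.19. Other scaling factors moved the median of all genes from -0.004 to between -0.014 and 0.004. No paired analysis was possible because the groups share no replicate numbers in the labels. Depth limits Maff, with 9 to 27 counts per library. The labels do not give the time or order of tissue collection, and what the runs of sample numbers stand for is not stated.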
